A study of Rattus norvegicus with 9 samples.

Results

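Hepatic amino acid catabolism enzymes were followed here in rat liver as a set of 36 genes. They were chosen by symbol for the breakdown steps they encode, with earlier results of these data known. Their counts beside those of all genes are therefore a description and not a test. All 36 of 36 were found among the 32883 genes of the count table, 35 under the same symbol and Prodh under its older symbol Prodh1. They were arranged in 9 groups: tyrosine and phenylalanine, tryptophan, lysine, serine and glycine, histidine, proline and ornithine, branched-chain amino acids, the aminotransferases, and the pyrimidine and beta-alanine pair.

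The 9 libraries came from the livers of male Sprague-Dawley rats, 1 library per rat and 3 rats to a group. Normal control rats (N1, N12 and N3) received a normal diet and no carcinogen. DEN model rats (M13, M17 and M24) were given diethylnitrosamine (DEN), a liver carcinogen that is activated inside hepatocytes. The DEN course was 0.01% DEN by weekly intraperitoneal injection over an experiment of 16 weeks. PZH administration rats (G27, G28 and G42) received the same DEN course and Pien-Tze-Huang (PZH), a traditional Chinese formula. The sources name a low-dose and a high-dose PZH group, and the dose of the G rats is not given. The age and week of collection of each sequenced rat are not given in the sources used here either. Rats of each group were killed at several times up to 16 weeks, so a sequenced rat may have had a shorter course. One label is at odds with this design, since PZH is given as the treatment of M rats and G rats alike. Group membership was read from the letter of each title, and every direction below rests on that reading. All rats were outbred animals fasted before collection, so the values below belong to fasted liver. The rats of a group shared a treatment, and nothing in the sources ties rats of different groups to each other.

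The liver is the main site at which most amino acids other than the branched-chain ones are broken down. Each pathway opens with an enzyme that removes the amino group or opens the ring, and later mitochondrial, cytosolic or peroxisomal steps pass the carbon to glucose, ketone bodies or the citric acid cycle. Several entry enzymes, Tat and Tdo2 among them, are classical targets of glucocorticoids, and several are used as signs of a differentiated hepatocyte.

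Total counts per rat lay between 14922973 and 27161496. Levels are given as CPM, the counts divided by a library size that was adjusted with TMM factors (trimmed mean of M values, which set the bulk of genes to no change). These factors were between 0.731 and 0.799 in the normal control rats, between 0.863 and 0.941 in the PZH administration rats and between 1.21 and 1.58 in the DEN model rats. A floor of 3 counts corresponded to 0.125 to 0.252 CPM and covers counting error only. The lowest count of any member in any rat was 42, for Acmsd, so every member was above the floor in every rat. A gene was called changed at a Benjamini-Hochberg adjusted p under 0.05 by edgeR, taken over all genes tested, and all 36 members passed the filter on low counts in each comparison. Fold changes are log2 values with their standard error (SE), and errors of group means are SD with n = 3 rats.

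Rat M17 stood apart from the other DEN model rats in this gene set. It had the highest CPM of the 3 DEN model rats for 35 of the 36 members, Bckdhb being the exception, whereas it was highest for 37.1% of all genes tested. Its median fold over the mean of M13 and M24 was 2.43 for the members and 0.987 for all genes. It was also highest for 15 of 15 hepatocyte markers and lowest for 8 of 8 stellate cell markers. Rat M24 was the lowest for 28 of the 36 members. The counts of members called in comparisons with the DEN model group are therefore given with and without M17.

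Compared with the normal control group, the DEN model group had lower mRNA of most of these enzymes, from the entry steps to the last steps of the pathways. The summed CPM of the 36 members was 12660, 15937 and 16381 in rats N1, N12 and N3. It was 2361, 5368 and 2017 in rats M13, M17 and M24, and 10214, 8847 and 9827 in rats G27, G28 and G42. The 3 groups did not overlap on this sum, with the DEN model rats lowest and the PZH administration rats between the other groups. In these bulk livers fewer hepatocytes and less RNA per hepatocyte cannot be told apart.

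Of the 36 members, 29 were called lower in the DEN model group, beside 20.5% of all 14255 genes tested. None was called higher, beside 25.3% of all genes. By edgeR 1 member was higher at an unadjusted p under 0.05, beside 29% of all genes. DESeq2 called 30 lower and 0 higher, beside 14.8% and 19.7% of its 20189 genes. Here and below, the DESeq2 shares are over all genes with any count, and a gene without an adjusted p counts as not called. They include low-count genes that edgeR left out, so they run lower than shares over filtered genes would. The groups did not overlap for 30 members with the DEN model rats lower (27.4% of all genes) and for 1 member with the DEN model rats higher (31.4% of all genes). The median log2 fold change of the members was -1.89, against 0.03 for all genes. It was below 0 for 35 of 36 members, although with library totals in place of the TMM factors Gldc, Amt, Amdhd1 and Agxt2 came out above 0. The study screened genes by a log2 fold change of more than 2 in size with an unadjusted P under 0.001, and 9 members were lower by that measure, beside 3.49% of all genes. These were Tat, Kynu, Dhtkd1, Hal, Ftcd, Prodh, Oat, Agxt and Dpys. Without M17 there were 34 members called lower (Acmsd, Sdsl, Gldc, Amdhd1 and Agxt2 in addition), 24 past the study's thresholds and a median of -2.59, and without N3 there were 5 past those thresholds. Of all genes, 2917 were called lower by adjusted p with every rat and 2925 without M17. The share of all genes past the study's thresholds is not given for fits without a rat. The counts of 24 and 5 therefore cannot be set against all genes.

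**Figure D1:**
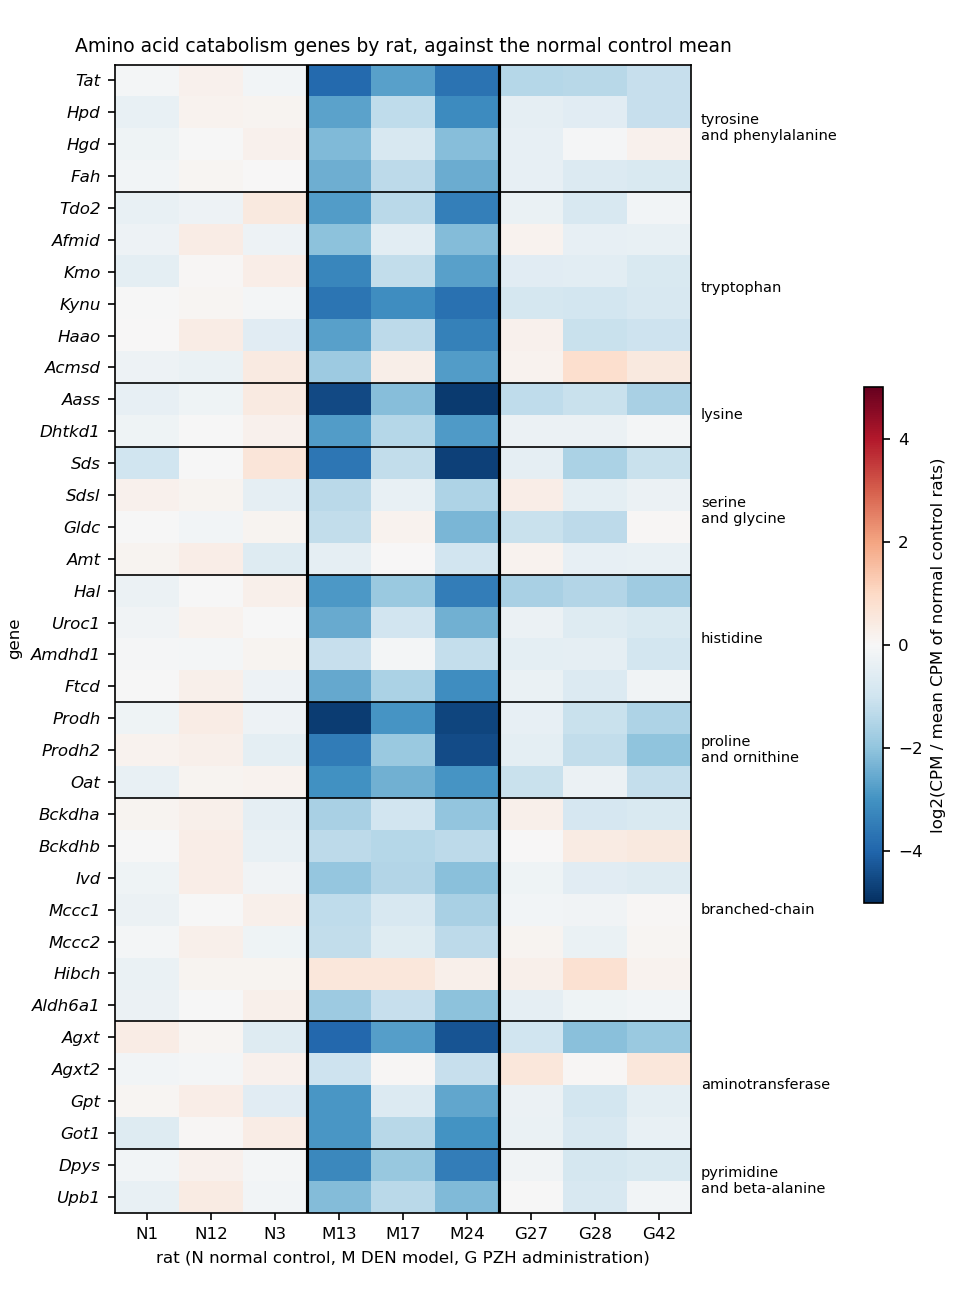
Level of each of the 36 genes (rows, grouped by pathway) in each rat (columns) as log2 of its CPM over the mean CPM of the 3 normal control rats, blue below and red above that mean. The DEN model columns are the bluest, M17 is paler than M13 and M24, and Hibch is the only member whose 3 DEN model rats all lie above the normal control rats.

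The tyrosine and phenylalanine group was lower throughout, with 4 of 4 members called. Tat, tyrosine aminotransferase, which removes the amino group of tyrosine, was at 2663, 3342 and 2641 CPM in N1, N12 and N3. It was at 194, 434 and 222 CPM in M13, M17 and M24. Every DEN model rat was thus far below every normal control rat (log2 fold change -3.33, SE 0.41, adjusted p = 0.00056), a 10.1-fold lower level. Hpd, the hydroxyphenylpyruvate dioxygenase that follows, had a mean of 1429 ± 274 CPM in the normal control and 327 ± 232 CPM in the DEN model group (log2 fold change -2.12, SE 0.50, adjusted p = 0.00877). Hgd, the homogentisate dioxygenase, had the smallest difference of the group. It was at 219, 249 and 290 CPM in the normal control rats and at 54.6, 146 and 58.0 CPM in M13, M17 and M24 (log2 fold change -1.54, SE 0.39, adjusted p = 0.0122). The last enzyme of the route, the fumarylacetoacetate hydrolase Fah, fell by 1.95 on the log2 scale (SE 0.35, adjusted p = 0.00255), from 454 ± 38.3 to 116 ± 57.0 CPM.

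In the tryptophan group 5 of 6 members were called lower. Tdo2, tryptophan dioxygenase, opens the indole ring and commits tryptophan to the kynurenine route. It was at 1482, 1622 and 2676 CPM in N1, N12 and N3 and at 279, 762 and 179 CPM in M13, M17 and M24 (log2 fold change -2.23, SE 0.56, adjusted p = 0.0118). Relative to their mean, the DEN model rats differed among themselves more than the normal control rats did, and M17 stood well above M13 and M24. Kynu, kynureninase, which splits alanine off the kynurenines, was far more even. Its values were 218, 236 and 209 CPM in the normal control rats and 17.6, 25.5 and 16.4 CPM in the DEN model rats (log2 fold change -3.46, SE 0.24, adjusted p = 5.65e-05). The 11.0-fold difference in Kynu had the smallest adjusted p of any member. Haao, Kmo and Afmid, which encode the hydroxyanthranilate dioxygenase, the kynurenine monooxygenase and the kynurenine formamidase, had log2 fold changes of -2.20 (SE 0.51), -2.13 (SE 0.50) and -1.35 (SE 0.44), with adjusted p of 0.00833, 0.00909 and 0.0334. The call on Afmid was lost on leaving out any 1 rat other than M17, and also with library totals. Acmsd, the decarboxylase that leads the pathway away from NAD synthesis, was not called. It was at 10.2, 9.54 and 16.6 CPM in the normal control rats and at 3.44, 15.0 and 1.75 CPM in M13, M17 and M24, with M17 inside the normal range (log2 fold change -0.84, SE 0.68, adjusted p = 0.34), and was called lower without M17.

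Both lysine enzymes were called lower. Aass, the aminoadipate semialdehyde synthase that catalyses the entry steps of lysine breakdown, was at 400, 468 and 738 CPM in N1, N12 and N3. In M13, M17 and M24 it was at 23.2, 123 and 19.6 CPM (log2 fold change -3.27, SE 0.72, adjusted p = 0.00646), so the spread within the DEN model group was large and still below the normal range. Dhtkd1, a dehydrogenase subunit of the later oxoadipate step, was at 352, 407 and 481 CPM in the normal control rats and at 60.0, 152 and 58.3 CPM in the DEN model rats (log2 fold change -2.18, SE 0.40, adjusted p = 0.00308).

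The start-site regions of 4 of these genes are shown because they belong to entry enzymes or to the member with the lowest fold change of its pathway. The sequences are the RefSeq GRCr8 promoter windows of 300 bases, 250 before and 50 after the annotated start, written 5′ to 3′ on the gene's strand. The regions are chr19:54856354-54856653 (+) for Tat, chr2:169585537-169585836 (-) for Tdo2, chr3:48188036-48188335 (+) for Kynu and chr4:52628762-52629061 (-) for Aass. Capitals mark the letters CCAAT and their reverse complement ATTGG, the CCAAT box.
Tat: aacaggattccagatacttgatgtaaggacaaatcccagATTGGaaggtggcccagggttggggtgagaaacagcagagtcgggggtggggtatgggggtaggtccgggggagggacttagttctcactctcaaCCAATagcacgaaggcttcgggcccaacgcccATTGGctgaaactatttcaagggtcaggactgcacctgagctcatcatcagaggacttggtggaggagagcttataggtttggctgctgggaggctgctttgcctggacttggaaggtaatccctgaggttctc
Tdo2: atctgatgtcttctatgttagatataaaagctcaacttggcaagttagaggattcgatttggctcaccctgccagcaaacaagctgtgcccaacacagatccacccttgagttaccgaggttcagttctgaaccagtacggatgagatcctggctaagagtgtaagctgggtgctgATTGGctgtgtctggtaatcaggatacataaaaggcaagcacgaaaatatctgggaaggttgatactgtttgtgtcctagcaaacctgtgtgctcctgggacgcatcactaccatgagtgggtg
Kynu: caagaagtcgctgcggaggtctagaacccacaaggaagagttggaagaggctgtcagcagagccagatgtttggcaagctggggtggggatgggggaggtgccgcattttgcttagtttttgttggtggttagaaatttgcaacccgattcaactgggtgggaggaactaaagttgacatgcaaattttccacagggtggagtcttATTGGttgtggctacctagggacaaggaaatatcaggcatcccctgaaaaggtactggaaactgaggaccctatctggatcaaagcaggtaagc
Aass: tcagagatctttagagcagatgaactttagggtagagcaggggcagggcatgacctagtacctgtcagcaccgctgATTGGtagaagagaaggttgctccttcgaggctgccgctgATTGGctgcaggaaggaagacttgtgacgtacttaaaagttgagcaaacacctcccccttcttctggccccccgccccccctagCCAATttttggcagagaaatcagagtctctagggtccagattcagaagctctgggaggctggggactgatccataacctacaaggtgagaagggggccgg

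Tat and Aass each held 3 such matches in this window, whereas Tdo2 and Kynu each held 1. The matches lay 211, 116 and 84 bases before the start in Tat, 74 before it in Tdo2, 44 before it in Kynu, and 174, 134 and 50 before it in Aass. RefSeq windows were at hand for 26 of the 36 members. CCAAT was present on either strand in 19 of these 26 (73.1%), beside 37.5% of all 33469 windows in the table and 37.3% of the 11210 windows of genes tested. Its share was 17 of 22 among members called lower in the DEN model group and 2 of 4 among members not called, so it was common to both kinds. The other 5 motifs were searched on both strands in the same windows. CAAAGTCCA, the core of an HNF4 site, was present in Agxt2 and Kmo (0.391% of all windows), and GTTAATNAT, the core of an HNF1 site, in Prodh2 (0.747%). AGAACA, a glucocorticoid receptor half-site, was present in Agxt, Bckdhb, Ftcd and Haao, 4 of 26 members (15.4%), beside 20.7% of all windows and 12.8% of those of genes tested. TTGCGCAA and TGACGTCA were in none of the 26 windows and in 0.17% and 1.83% of all windows. A letter match is a description of the sequence only, and no binding was measured.

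In the serine and glycine group 1 of 4 members was called lower, and 3 of 4 without M17. Sds, serine dehydratase, turns serine into pyruvate and is known to vary with feeding. It was at 189, 373 and 569 CPM in N1, N12 and N3 and at 30.7, 159 and 14.9 CPM in M13, M17 and M24 (log2 fold change -2.46, SE 0.82, adjusted p = 0.0374). Both groups were widely spread, and the call was lost without M13, M24, N12 or N3. Its neighbour Sdsl, serine dehydratase-like, lies 9.252 kb away on chromosome 12 of the deposited annotation. Sdsl was at 10.4, 9.77 and 6.55 CPM in the normal control rats and at 3.48, 6.83 and 3.08 CPM in the DEN model rats (log2 fold change -0.98, SE 0.36, adjusted p = 0.0517). M17 lay inside the normal range of Sdsl, which was called lower without M17 or without N3, by DESeq2 and with all 3 groups in 1 fit. Gldc and Amt encode the P and T proteins of the mitochondrial glycine cleavage system. Gldc was at 110, 100 and 124 CPM in the normal control rats and at 48.1, 125 and 23.1 CPM in M13, M17 and M24 (log2 fold change -0.75, SE 0.51, adjusted p = 0.257). Amt was at 25.5, 29.7 and 14.8 CPM in the normal control rats and at 17, 23.5 and 12.0 CPM in the DEN model rats (log2 fold change -0.40, SE 0.32, adjusted p = 0.332). Neither glycine cleavage gene separated the groups. Both changed sign with library totals, and Gldc was called lower without M17.

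In the histidine group 3 of 4 members were called lower. Hal, histidine ammonia-lyase, opens the pathway by removing ammonia from histidine. It was at 331, 403 and 483 CPM in N1, N12 and N3 and at 56.1, 114 and 37.3 CPM in M13, M17 and M24 (log2 fold change -2.54, SE 0.41, adjusted p = 0.00174). Uroc1, urocanase, and Ftcd, which passes the last carbon and nitrogen to folate, followed with log2 fold changes of -1.76 (SE 0.42) and -2.25 (SE 0.40) and adjusted p of 0.00981 and 0.00261. Amdhd1, the imidazolonepropionase between these steps, was not called. Its values were 88.3, 87.6 and 103 CPM in the normal control rats and 42.2, 86.1 and 41.2 CPM in the DEN model rats (log2 fold change -0.70, SE 0.29, adjusted p = 0.0822). The groups just failed to overlap, with M17 slightly under the lowest normal control rat, and Amdhd1 was called lower without M17. Hal and Amdhd1 lie 5.219 kb apart on chromosome 7 of the deposited annotation.

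The proline and ornithine group held the largest fall of any member, and 3 of 3 were called. Prodh, the mitochondrial proline dehydrogenase, was at 64.9, 97.2 and 62.4 CPM in N1, N12 and N3 and at 2.80, 9.76 and 3.12 CPM in M13, M17 and M24. The 14.2-fold lower level (log2 fold change -3.83, SE 0.49, adjusted p = 0.000628) rested on at least 66 counts in each rat. Oat, ornithine aminotransferase, was at 311, 451 and 456 CPM in the normal control rats and at 50.3, 76.9 and 53.1 CPM in the DEN model rats (log2 fold change -2.74, SE 0.28, adjusted p = 0.000262). M17 lay closer to M13 and M24 for Oat than for Prodh. Prodh2, which acts on hydroxyproline, fell by 2.84 on the log2 scale (SE 0.59, adjusted p = 0.00521), from 103 ± 26.7 to 14.3 ± 12.9 CPM.

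Among the branched-chain enzymes 6 of 7 were called lower, with smaller differences (median log2 fold change -1.33). Bckdha and Bckdhb encode the decarboxylase subunits of the branched-chain ketoacid dehydrogenase, the committed step for leucine, isoleucine and valine. Bckdha was at 146, 160 and 97.2 CPM in N1, N12 and N3 and at 43.6, 68.3 and 34.1 CPM in M13, M17 and M24 (log2 fold change -1.45, SE 0.30, adjusted p = 0.0049). Bckdhb had a log2 fold change of -1.33 (SE 0.20, adjusted p = 0.00133) and a mean of 30.4 ± 1.67 CPM in the DEN model rats. Ivd, the isovaleryl-CoA dehydrogenase of leucine breakdown, was at 146, 212 and 152 CPM in the normal control rats and at 44.9, 60.8 and 40.2 CPM in the DEN model rats (log2 fold change -1.79, SE 0.24, adjusted p = 0.000803). Mccc1 and Mccc2, the subunits of methylcrotonyl-CoA carboxylase, had log2 fold changes of -1.17 (SE 0.25) and -0.99 (SE 0.24), with adjusted p of 0.00568 and 0.00953. Reads over Mccc1 are less certain, because the annotated Dcun1d1 overlaps it, with 3307 counts beside 5334 over the 9 rats, and the use of strand in the counting is not stated. Aldh6a1, the semialdehyde dehydrogenase of valine breakdown, had a mean of 1424 ± 274 CPM in the normal control and 460 ± 158 CPM in the DEN model group (log2 fold change -1.62, SE 0.34, adjusted p = 0.00531). Hibch, the hydrolase that precedes it in valine breakdown, was not called and had a fold change above 0. It was at 30.5, 41.4 and 42.4 CPM in N1, N12 and N3 and at 56.1, 56.2 and 44.8 CPM in M13, M17 and M24 (log2 fold change 0.47, SE 0.19, adjusted p = 0.0759). Its groups did not overlap, and it was called higher with library totals and with at least 10 counts required in every rat.

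Among the aminotransferases 3 of 4 were called lower. Agxt, the alanine-glyoxylate aminotransferase that keeps glyoxylate from becoming oxalate, was at 254, 211 and 127 CPM in N1, N12 and N3. In M13, M17 and M24 it was at 13, 29.5 and 9.87 CPM (log2 fold change -3.48, SE 0.45, adjusted p = 0.000681). Agxt2, an aminotransferase of a similar name, was at 105, 108 and 136 CPM in the normal control rats. It was at 56.7, 123 and 52.3 CPM in the DEN model rats (log2 fold change -0.58, SE 0.33, adjusted p = 0.185). M17 fell inside the normal range of Agxt2, which was called lower without M17. Got1, the cytosolic aspartate aminotransferase, and Gpt, the alanine aminotransferase, had log2 fold changes of -2.22 (SE 0.49, adjusted p = 0.00695) and -1.70 (SE 0.56, adjusted p = 0.0358). The Gpt call, like that of Afmid, was lost on leaving out any 1 rat other than M17.

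Dpys and Upb1, successive enzymes that degrade pyrimidines to beta-alanine and its relatives, were both called lower. Dpys, dihydropyrimidinase, was at 333, 418 and 338 CPM in N1, N12 and N3 and at 38.8, 97.5 and 32.7 CPM in M13, M17 and M24 (log2 fold change -2.67, SE 0.42, adjusted p = 0.00156). Upb1, beta-ureidopropionase, was at 203, 342 and 236 CPM in the normal control rats and at 57.6, 103 and 57.0 CPM in the DEN model rats (log2 fold change -1.83, SE 0.32, adjusted p = 0.00236).

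Levels of different enzymes were set against each other on the FPKM scale of the authors, which divides by length. In the normal control rats Tat (968 ± 166 FPKM), Tdo2 (841 ± 239 FPKM) and Hpd (719 ± 131 FPKM) led the members and did not differ beyond their spread. Aldh6a1 (334 ± 50.7 FPKM) and Got1 (284 ± 84.1 FPKM) came next, and Sdsl (5.04 ± 1.37 FPKM) was lowest. Within the DEN model group Tdo2 (307 ± 193 FPKM), Hpd (284 ± 161 FPKM) and Aldh6a1 (193 ± 37.9 FPKM) stood ahead of Tat (168 ± 53.4 FPKM), with overlapping spreads. Prodh was the lowest member there, at 2.16 ± 1.31 FPKM.

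The PZH administration group was compared with the DEN model group to find the genes that PZH altered. These values share the 3 DEN model rats with the comparison above, so a DEN model rat that is low for a member lowers the one and raises the other. Of the 36 members, 18 were called higher in the PZH administration group, beside 8.72% of all 14272 genes tested. None was called lower, beside 10.3% of all genes, also at an unadjusted p under 0.05 (0 members, beside 18.3% of all genes). At that level 29 were higher, beside 16.6% of all genes, and DESeq2 called 27 higher and 0 lower, beside 8.6% and 9.66%. The median log2 fold change was 1.48, against 0.01 for all genes. The groups did not overlap for 26 members with the PZH administration rats higher, beside 18.4% of all genes. Tat, Kynu, Dhtkd1 and Prodh passed the study's thresholds, 4 members beside 1.08% of all genes.

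The count of 18 depended strongly on single rats. Without M17 it was 32, the 14 added being Aass, Acmsd, Afmid, Agxt2, Bckdha, Gpt, Haao, Hal, Hpd, Kmo, Prodh2, Sds, Sdsl and Uroc1, with 18 past the study's thresholds and a median log2 fold change of 2.15. Without M13 it was 2, without M24 it was 6, without G42 it was 8, without G27 it was 12 and without G28 it was 13. The number of all genes called higher also changed, from 1245 to 119 without M13, 276 without M24 and 624 without G42. It was 1030 without G27, 508 without G28 and 1594 without M17. Kynu and Bckdhb were called higher in every one of these fits. The number past the study's thresholds was 1 without M13, M24 or G28 and 2 without G27. For these counts, and for the 18 without M17, the share of all genes past those thresholds is not given.

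Among the tyrosine enzymes, Tat was at 1079, 1094 and 1305 CPM in G27, G28 and G42, above every DEN model rat and below every normal control rat. It was 4.16-fold higher than in the DEN model group (log2 fold change 2.06, SE 0.35, adjusted p = 0.0131). Hgd was at 188, 243 and 296 CPM in the PZH administration rats (log2 fold change 1.51, SE 0.40, adjusted p = 0.0362), and Fah had a log2 fold change of 1.38 (SE 0.34, adjusted p = 0.0294). Hpd, at 881 ± 210 CPM in the PZH administration group, was not called (log2 fold change 1.46, SE 0.49, adjusted p = 0.0711).

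In the tryptophan group Kynu and Tdo2 were called higher. Kynu was again even between rats, at 119, 117 and 128 CPM in G27, G28 and G42 (log2 fold change 2.63, SE 0.22, adjusted p = 0.00188). Tdo2 was at 1549, 1113 and 1735 CPM (log2 fold change 1.87, SE 0.53, adjusted p = 0.0424). Haao, Kmo and Afmid had log2 fold changes of 1.72 (SE 0.58), 1.55 (SE 0.47) and 1.22 (SE 0.44) without passing the threshold, with adjusted p of 0.0701, 0.0545 and 0.0876. Acmsd was at 13.8, 21.7 and 17.1 CPM (log2 fold change 1.41, SE 0.68, adjusted p = 0.179). M17 was again the DEN model rat whose Acmsd overlapped with the other group.

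Of the lysine enzymes, Dhtkd1 was at 341, 338 and 388 CPM in G27, G28 and G42 and was called higher (log2 fold change 2.0, SE 0.39, adjusted p = 0.0163). Aass, at 223, 249 and 175 CPM, had nearly the same log2 fold change of 1.99 with a larger error and was not called (SE 0.67, adjusted p = 0.0706). None of the serine and glycine members was called. In G27, G28 and G42, Sds was at 279, 126 and 173 CPM, Sdsl at 11.1, 6.26 and 7.26 CPM, Gldc at 51.5, 45.0 and 117 CPM and Amt at 26.7, 17.3 and 17.8 CPM. Their log2 fold changes were 1.53 (SE 0.78), 0.91 (SE 0.38), 0.13 (SE 0.59) and 0.27 (SE 0.29), and those of Gldc and Amt turned negative with library totals. For these 4 genes the PZH administration rats overlapped with the DEN model rats.

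Ftcd was the only histidine enzyme called higher (log2 fold change 1.91, SE 0.40, adjusted p = 0.0182), at 410 ± 74.4 CPM. Hal, at 133, 147 and 120 CPM in G27, G28 and G42, lay above all 3 DEN model rats without passing the threshold (log2 fold change 0.98, SE 0.38, adjusted p = 0.104). Uroc1 had a log2 fold change of 1.25 (SE 0.43, adjusted p = 0.0749). Amdhd1 was at 65.5, 68.1 and 49.5 CPM (log2 fold change 0.14, SE 0.31, adjusted p = 0.788, and below 0 with library totals).

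Prodh had the largest rise of any member, to 56.6, 34.2 and 25.9 CPM in G27, G28 and G42, a 7.63-fold higher level than in the DEN model group (log2 fold change 2.93, SE 0.53, adjusted p = 0.014). Oat, at 187, 333 and 178 CPM, was also called (log2 fold change 1.98, SE 0.31, adjusted p = 0.0106). The lowest Oat value in a PZH administration rat was still above the highest in a DEN model rat. Prodh2, at 47.5 ± 24.2 CPM, was not called (log2 fold change 1.77, SE 0.65, adjusted p = 0.0919).

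Of the branched-chain enzymes 5 of 7 were called higher. Bckdhb led them with a log2 fold change of 1.69 (SE 0.18, adjusted p = 0.00562) and a mean of 96.8 ± 16.1 CPM. Ivd was at 145, 114 and 109 CPM in G27, G28 and G42 (log2 fold change 1.36, SE 0.23, adjusted p = 0.0119). Aldh6a1, Mccc1 and Mccc2 followed with 1.39 (SE 0.30), 1.13 (SE 0.23) and 1.01 (SE 0.24), with adjusted p of 0.021, 0.0171 and 0.0268. Bckdha, at 162, 75.3 and 79.6 CPM, was highest in G27 and was not called (log2 fold change 1.15, SE 0.37, adjusted p = 0.065). Hibch, at 45.2, 64.7 and 43.4 CPM, differed little from its DEN model values (log2 fold change -0.01, SE 0.21, adjusted p = 0.975).

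Agxt and Got1 were the aminotransferases called higher. Agxt was at 99.8, 46.1 and 54.6 CPM in G27, G28 and G42 (log2 fold change 1.97, SE 0.46, adjusted p = 0.0249), and Got1 had a log2 fold change of 1.77 (SE 0.45, adjusted p = 0.0306). Agxt2, at 174, 121 and 172 CPM, and Gpt, at 117 ± 24.8 CPM, were not called (log2 fold changes 1.03, SE 0.35, and 1.20, SE 0.55, adjusted p 0.0743 and 0.161). Dpys and Upb1 were both called higher. Dpys was at 323, 199 and 215 CPM (log2 fold change 2.15, SE 0.44, adjusted p = 0.0176), and Upb1 at 260, 149 and 234 CPM (log2 fold change 1.59, SE 0.32, adjusted p = 0.017). For both pyrimidine enzymes every PZH administration rat was above every DEN model rat.

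**Figure D2:**
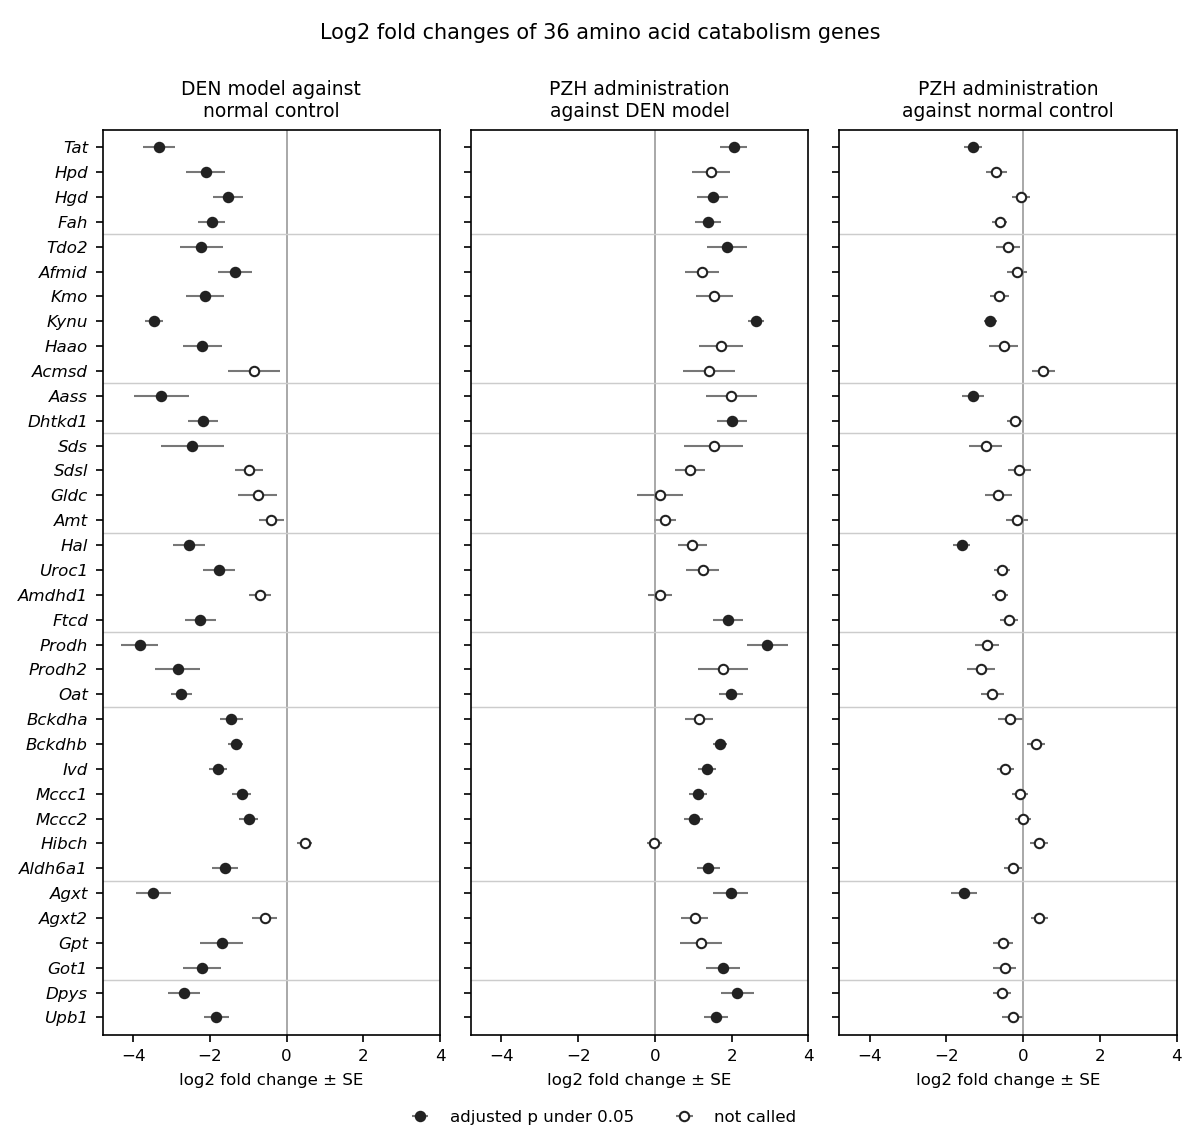
Log2 fold change with its SE (bars) of each of the 36 genes in the 3 comparisons, from 6 rats each, filled where the adjusted p was under 0.05. The medians are -1.89, 1.48 and -0.50 from left to right, and Prodh lies farthest from 0 in the left and middle panels.

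Against the normal control group, the PZH administration group was lower for 5 members, beside 1.15% of all 13348 genes tested, and higher for none, beside 4.07% of all genes. By edgeR no member was higher at an unadjusted p under 0.05 and 15 were lower, beside 11.3% and 7.19% of all genes. DESeq2 called 8 lower and 0 higher, beside 2% and 4.81%. No member passed the study's thresholds. The members called lower were Hal, Agxt, Aass, Tat and Kynu, which include the entry enzymes of the histidine, lysine and tyrosine routes. Hal had the largest difference (log2 fold change -1.61, SE 0.22, adjusted p = 0.00658), a 3.05-fold lower level, with the PZH administration rats at no more than 147 CPM and the normal control rats at no less than 331 CPM. Agxt, Aass, Tat and Kynu had log2 fold changes of -1.54 (SE 0.34), -1.32 (SE 0.29), -1.31 (SE 0.23) and -0.86 (SE 0.17), with adjusted p of 0.0355, 0.0338, 0.0144 and 0.0236. Kynu was thus 1.82-fold lower than in normal control rats in the PZH administration group and 11.0-fold lower in the DEN model group.

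The groups did not overlap for 13 members with the PZH administration rats lower, beside 10.6% of all genes. These were the 5 members called and Hpd, Fah, Kmo, Uroc1, Amdhd1, Prodh, Ivd and Dpys. For 1 member, Hibch, they did not overlap with the PZH administration rats higher, beside 13.6% of all genes. The median log2 fold change of the members was -0.50, against -0.02 for all genes. Of the 31 members not called, the lowest log2 fold change was that of Prodh2 (-1.11, SE 0.36, adjusted p = 0.13). Hgd (-0.06, SE 0.23), Mccc1 (-0.08, SE 0.21), Mccc2 (-0.02, SE 0.21) and Sdsl (-0.10, SE 0.30) were nearest to 0, and all 4 came out above 0 with library totals. Acmsd, Agxt2, Hibch and Bckdhb had values above 0, at 0.53 (SE 0.30), 0.42 (SE 0.22), 0.42 (SE 0.23) and 0.33 (SE 0.23). The count of 5 was 9 without G27, 3 without G42, 2 without N1 and 1 without N12 or G28. All genes called lower were 153 with every rat, 539 without G27, 50 without G42, 43 without N1, 47 without N12 and 30 without G28. Hal was called in every one of these fits.

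Other genes of amino acid breakdown that are not among the 36 moved in the same way in most cases. This list was also chosen with earlier results known and is no independent check. Of 46 such genes, all tested in the DEN model comparison, 39 were called lower and 3 higher, beside 20.5% and 25.3% of all genes, with a median log2 fold change of -1.58. Without M17 the counts were 40 and 3, and with library totals they were 23 and 4 with a median of -0.80. Of all genes, 2925 and 3659 were called lower and higher without M17. With library totals these were 958 and 8126, with an all-gene median of 0.89. Gnmt (-3.89, SE 0.73), glycine N-methyltransferase, and Cdo1 (-3.53, SE 0.52), cysteine dioxygenase, were lowest. They were followed by Grhpr (-2.71, SE 0.41), Gstz1 (-2.60, SE 0.36) and Hao1 (-2.59, SE 0.46), which handle glyoxylate, maleylacetoacetate and glycolate. The 3 called higher all belong to the branched-chain route. Bckdk, the kinase that inactivates the branched-chain ketoacid dehydrogenase, was at 20.2, 20.1 and 23.8 CPM in N1, N12 and N3 and at 36.4, 34.3 and 34.6 CPM in M13, M17 and M24 (log2 fold change 0.73, SE 0.16, adjusted p = 0.00644). Bcat2, the mitochondrial branched-chain aminotransferase, had a log2 fold change of 1.29 (SE 0.42, adjusted p = 0.0354). Bcat1, the cytosolic form that adult liver hardly expresses, was at 4.97, 1.78 and 10.8 CPM in M13, M17 and M24 and between 0.156 and 0.420 CPM, around the floor of 3 counts, in the normal control rats (adjusted p = 0.00244). The dehydrogenase subunits Bckdha and Bckdhb were lower in the same rats, as was Dbt, which encodes the acyltransferase of that complex (-0.88, SE 0.26, adjusted p = 0.0222), while Pcca of propionate breakdown had -0.73 (SE 0.22, adjusted p = 0.0257). In the PZH administration group 26 of the 46 were called higher than in the DEN model group and 1 lower, beside 8.72% and 10.3% of all genes. These counts were 37 and 1 without M17 and 14 and 4 with library totals. Of all genes, 1594 and 1725 were called higher and lower without M17, and 556 and 5696 with library totals. The 1 of the 46 called lower was Bcat1 (log2 fold change -2.86, SE 0.67, adjusted p = 0.0245), at 0.811, 1.04 and 0.499 CPM in G27, G28 and G42.

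By their medians, hepatocyte markers moved with the enzymes, and stellate cell and bile duct cell markers moved the other way. The 15 hepatocyte markers summed to between 188043 and 209011 CPM in the normal control, 40860 and 95509 CPM in the DEN model and 151243 and 205985 CPM in the PZH administration rats. In the DEN model group 9 of the 15 were called lower, beside 20.5% of all genes (median log2 fold change -1.64). In the PZH administration group 6 were called higher than in the DEN model group, beside 8.72% of all genes. Without M17 these counts were 14 and 13, and by DESeq2 they were 14 and 11. Albumin (Alb) averaged 94940 ± 6169 CPM, 21996 ± 8378 CPM and 81067 ± 15426 CPM in the normal, DEN model and PZH administration groups, and transferrin (Tf) 36459 ± 3190, 18280 ± 7348 and 37232 ± 1684 CPM. Alb was called lower in the DEN model group (edgeR adjusted p = 0.0367) but was not called in PZH administration against DEN model (0.0503). Tf was called in neither comparison (edgeR adjusted p = 0.196 and 0.17). Stellate cell and myofibroblast markers summed to 195 to 323 CPM in the normal control, 1050 to 3210 CPM in the DEN model and 599 to 725 CPM in the PZH administration rats, with 7 of 8 called higher in the DEN model group. Among them Col3a1 averaged 159, 966 and 373 CPM and Col1a1 13.1, 546 and 102 CPM in the same order. The 6 bile duct cell markers summed to 13.4 to 21.1, 235 to 756 and 80.9 to 108 CPM, and all 6 were called higher in the DEN model than in the normal control group. The share of all genes called higher in that comparison was 25.3%. Krt19 averaged 1.46, 251 and 15.3 CPM and Epcam 15.0, 138 and 51.7 CPM. No hepatocyte, stellate or bile duct marker tested was at 0 throughout a group. The part of these cells in the enzyme differences was not tested.

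**Figure D3:**
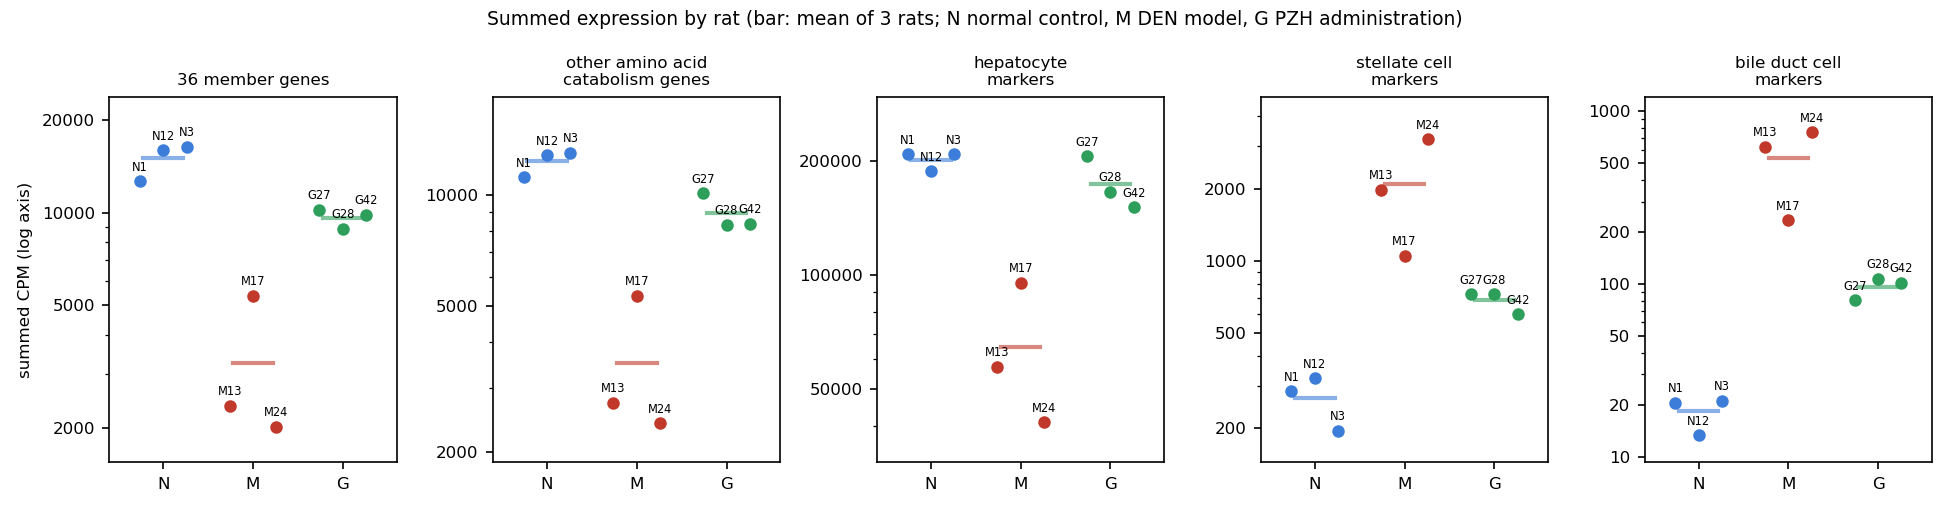
Summed CPM (log axis) of the 36 genes, of 46 other amino acid catabolism genes and of markers of hepatocytes, stellate cells and bile duct cells in each rat, with a bar at the mean of 3 rats. M17 is the highest DEN model rat in the first 3 panels and the lowest in the other panels.

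Markers of cells that also express some of these enzymes or that are foreign to liver were measured in the same way. In the DEN model comparison 25.3% of all genes were called higher and 20.5% lower. Proliferation markers summed to 6.09 to 8.47, 103 to 158 and 28 to 73.9 CPM in the normal, DEN model and PZH rats (4 of 5 called higher in the DEN model than in the normal control group), with Mki67 at 2.61, 48.9 and 21.5 CPM and Top2a at 2.53, 45.3 and 21.6 CPM. Lymphocyte markers summed to 23.5 to 45.9, 77.0 to 117 and 37.3 to 43.6 CPM, with 3 of 4 tested called higher, led by Cd4 (29.9, 78.1 and 35.1 CPM) and Cd8a (2.34, 8.16 and 2.32 CPM). Macrophage and endothelial sums overlapped between the groups. They were 428 to 836, 396 to 531 and 223 to 516 CPM for macrophages (2 of 6 called lower in the DEN model group), with Clec4f at 268, 110 and 161 CPM and Csf1r at 113, 161 and 79.1 CPM. For endothelial cells they were 335 to 411, 219 to 415 and 295 to 414 CPM (2 of 5 lower, 2 higher), with Kdr at 138, 61.7 and 118 CPM and Lyve1 at 120, 73.4 and 99.8 CPM. Kidney markers, which matter because Agxt2, Dpys and Prodh2 are also kidney enzymes, summed to no more than 4.29 CPM in any rat, and the 1 gene tested was called lower. Their main genes were Slc12a3 (3.05, 0.787 and 2.16 CPM) and Slc22a6 (0.609, 0.168 and 0.114 CPM), and Slc34a1 was at 0 in every rat. Exocrine pancreas markers summed to 3.61 to 11.2, 9.45 to 45.3 and 1.81 to 2.49 CPM (1 of 2 tested called higher in the DEN model group), with Prss1 and Pnlip at 0 in every rat, Cpa1 at 0, 20.2 and 0.386 CPM and Cela1 at 7.99, 3.75 and 1.73 CPM. Gut epithelium markers summed to 193 to 215, 67.3 to 569 and 33.1 to 137 CPM, with 4 of 6 tested called higher in the DEN model group, highest in M24, and with Cdh17 at 202, 99.2 and 85.9 CPM and Lgals4 at 0, 66.6 and 0.287 CPM. Their part in the enzyme differences was not tested either.

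Ratios of paired enzymes within a rat do not depend on the scaling between libraries. The log2 ratio of Agxt to Agxt2 counts was 1.27, 0.957 and -0.0948 in N1, N12 and N3. It was -2.13, -2.06 and -2.41 in M13, M17 and M24 and -0.804, -1.39 and -1.66 in G27, G28 and G42. These counts are not divided by length, so the ratio is read between rats and not as which enzyme is the more abundant. It was lower in every DEN-treated rat than in any normal control rat. No comparison showed an overlap of its groups, and the mean was lower by 2.91 in the DEN model than in the normal control group. The exact two-sided permutation test gave p = 0.1 in each comparison, the smallest p that 3 rats against 3 allow (adjusted p = 0.225 over 9 tests), so this design cannot pass the threshold. The DEN model rats agreed closely here (SD 0.185), M17 included.

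The log2 ratio of Sds to Sdsl averaged 5.29 ± 1.13 in the normal control, 3.32 ± 1.14 in the DEN model and 4.52 ± 0.166 in the PZH administration rats (SD, n = 3), with overlap in every comparison (exact permutation p = 0.2, 0.2 and 0.4 for DEN model against normal control, PZH administration against DEN model and PZH administration against normal control). That of Prodh to Prodh2 averaged -0.459 ± 0.327, -1.29 ± 0.607 and -0.233 ± 0.223. Only the PZH administration and DEN model rats did not overlap for this pair (exact permutation p = 0.1, against 0.2 and 0.6 for the other comparisons).

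**Figure D4:**
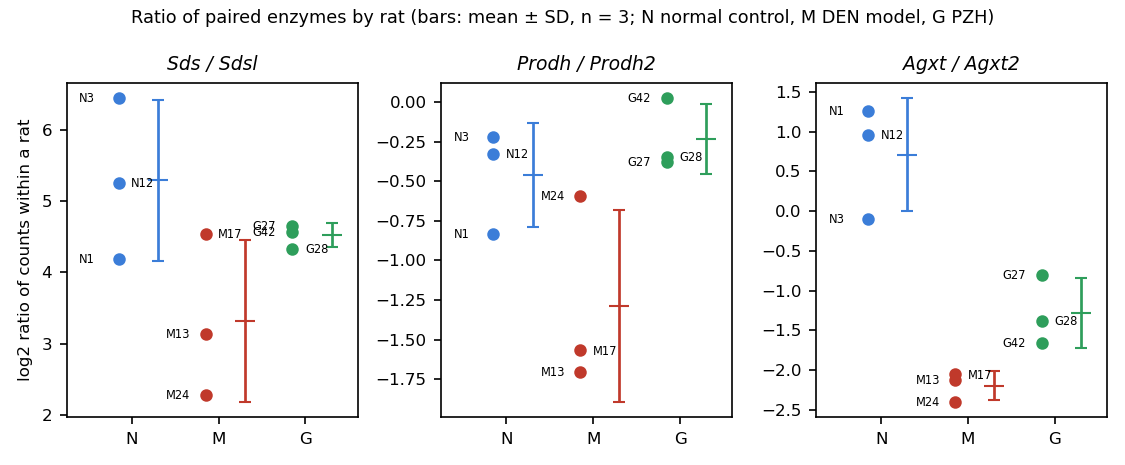
Log2 ratio of the counts of paired enzymes within each rat (points), with mean and SD of 3 rats beside them. For Agxt and Agxt2 the 3 groups lie apart, with the DEN model rats between -2.41 and -2.06.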

How the data were processed

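Liver mRNA of 9 rats was sequenced by the authors on an Illumina NovaSeq instrument. The submitters' processing notes name fastp, HISAT2 2.1.0, StringTie 1.3.3b and edgeR 3.30.3. The read counter and genome build are not given in the sources used here. The authors deposited whole-number counts per gene and rat without normalization, and FPKM values scaled for length and library size. The same table also holds group means and the authors' own comparisons (fold changes with P and Q), none of which were used. The number of per-sample columns left unused was 0.

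Counts were tested in R 4.3.3 with edgeR 4.0.16 (filterByExpr, TMM factors, glmQLFit and glmQLFTest, no covariates) on the 6 rats of each comparison, with Benjamini-Hochberg adjustment over all genes tested. SE is the absolute log2 fold change divided by the square root of the F statistic. The edgeR and DESeq2 fits were also run on simulated counts, with the same dispersion for every gene and no rat set apart. That setting is unlike these data, so it cannot judge the effect of M17 or of the scaling. Ratios of paired enzymes were compared with scipy 1.17.1. FPKM served only to compare levels between genes. Depth limits the precision of members with few counts. The edgeR p-values judge a group difference against the variation between 3 rats per group, with that variation estimated across genes.

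The members and gene lists were chosen with earlier results of these data known. Values in every rat are printed for 22 members: the entry enzyme, the lowest and the highest fold change of each of 9 pathway groups, and every member not called lower in the DEN model group. Of the other enzymes, the 5 lowest and 5 highest called are named, and of each of 10 marker lists the 2 with the highest mean CPM. Ahsg, Pecam1 and Amy2a3, which the marker lists hold, were not used here. Alternatives were DESeq2 1.42.0, library totals, testing without the low-count filter or with a minimum of 10 counts per rat, a joint fit of all 3 groups, and leaving out each rat.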

Additional observations from a re-analysis of the deposited data

How the results depend on the processing

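No paired analysis was made, because each group held different rats and the sources do not match rats between groups. With library totals in place of TMM factors the all-gene median log2 fold change moved from 0.03 to 0.89 (DEN model against normal control), from 0.01 to -0.67 (PZH administration against DEN model) and from -0.02 to 0.21 (PZH administration against normal control), and in the first of these the share of all called genes that were higher went from 55.3% to 89.5%. The median of the members moved to -1.08, 0.905 and -0.287, and in the DEN model comparison its difference from the all-gene median was -1.92 with TMM factors and -1.98 with library totals. Under the same setting the DEN model comparison had 4 members past the study's thresholds and 1 called higher, Hibch, it lost the calls of Afmid, Bckdha, Bckdhb, Gpt, Hgd, Mccc1 and Mccc2, and Gldc (0.00922), Amt (0.41), Amdhd1 (0.112) and Agxt2 (0.229) changed sign. PZH administration against DEN model had 1 member called lower, Hibch, and 1 past the thresholds, lost the calls of Mccc1 and Mccc2, and had Gldc at -0.411, Amt at -0.378 and Amdhd1 at -0.483. Against normal control the call of Kynu was lost, and Hgd (0.189), Afmid (0.0487), Dhtkd1 (0.0254), Sdsl (0.0991), Amt (0.0325), Mccc1 (0.167) and Mccc2 (0.199) changed sign.

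DESeq2 put 16 members past the study's thresholds in the DEN model comparison and called 8 lower in PZH administration against normal control. All 3 groups in 1 fit gave 14 and 3 for the same counts, the calls of Aass and Agxt being lost. At least 10 counts in every rat gave 1 member called higher in the DEN model comparison, Hibch, and Mccc2 at 0.0213 in PZH administration against normal control, where the call of Agxt was lost.

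Leaving out each rat in turn gave 26 to 34 members called lower in the DEN model comparison, 5 to 24 past the thresholds and medians of -2.59 to -1.71. For PZH administration against DEN model it gave 2 to 32 called higher, 1 to 18 past the thresholds and medians of 1.23 to 2.15, with Gldc at -0.40 to 1.00, Amdhd1 at -0.0464 to 0.557 and Hibch at -0.205 to 0.108. For PZH administration against normal control it gave 1 to 9 called lower and medians of -0.63 to -0.359, with Hgd at -0.233 to 0.0877, Afmid at -0.383 to 0.0547, Sdsl at -0.395 to 0.0628, Amt at -0.405 to 0.0338, Mccc1 at -0.227 to 0.0912 and Mccc2 at -0.113 to 0.117. Over the same fits, 1925 to 3137 of all genes were called lower in the DEN model comparison. In PZH administration against DEN model 119 to 1594 were called higher, and against normal control 30 to 539 were called lower. The cause of these shifts was not tested. Under every alternative setting, the counts past the study's thresholds lack the share of all genes, and they are not read against it. With 3 rats in a group, and as few as 42 counts of Acmsd in a rat, small differences in the low members could not be resolved.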
